A study of Mus musculus with 24 samples.

Results

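The 50 genes examined here make up the core machinery of the cell cycle and of DNA replication: cyclins and their kinases, the factors that license and fire replication origins, the transcription factors that drive them, and the kinases, motors and ubiquitin ligase parts of mitosis. They are 50 of the 22911 gene symbols on the array, named for their roles with earlier results of these data known, and all 50 were measured. The question put to them was whether tumour lines that had once been dormant in mice carry less cell cycle RNA in culture than the parental lines.

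RNA was measured on 24 mouse arrays of 1 colour. The melanoma lines derive from B16F1-GFP, a mouse melanoma line that carries a green fluorescent protein: the parental line B16-M (3 arrays), the dormant line B16-D (4) and the lines titled B16-D-733 (4), B16-D-735 (3) and B16-D-739 (3). According to the study, dormancy was established in syngeneic mice vaccinated with irradiated tumour cells that made a cytokine, GM-CSF for the melanoma and interleukin-12 for the leukemia. The study calls the 3 later lines a second generation of dormant melanoma cells, and the labels do not say which title number belongs to which of them. The leukemia lines are M0-p20 (4 arrays) and J365-p20 (3), and M0-p20 was taken as the parent of J365-p20 from the titles and the study's description, since the labels do not name the parent. The number in the title J365 was taken as the day of dormancy, in the study's leukemia model, which is built on the DA1-3b line. Replicates 1 and 3 of B16-D-733 carry the same number in their titles and were the closest arrays of that line (SD of the log2 differences over genes 0.340, against 0.436 to 0.811 for its other pairs). They were also the only pair of that line on the same slide. Whether they are separate cultures is not known. Melanoma cells were grown in DMEM with serum, with no further treatment stated, while the culture of the leukemia cells and whether each line is 1 clone are not given in the sources used here. Nothing in the labels says that arrays of a line came from separate cultures, so the p-values measure the spread between these arrays, which may be technical.

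Proliferating cells pass from G1 into S phase when cyclin D and cyclin E kinases release the E2F transcription factors, which switch on the genes for origin licensing and DNA synthesis. A later set of genes, driven by Foxm1 and Mybl2, builds the spindle and is silenced again in resting cells. Cells that leave the cycle lose the RNA of both sets, which is why Mki67, Top2a and the Mcm genes are used as marks of proliferation in tumours, and melanoma is known for lesions of the cyclin D pathway and of its inhibitor Cdkn2a. In RNA from a whole culture, fewer cycling cells and less RNA per cycling cell cannot be told apart.

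Promoters of many cell cycle genes carry short sequences through which these programmes act, and 4 are shown: those of Cdk2 and E2f8, on which comparisons below turn, and those of Mcm5 and Cdc20 as examples of a replication gene and a mitotic gene. Promoter windows, 250 bases before to 50 bases after the gene start, were taken from RefSeq on GRCm38.p6, and 39 of the 50 members had one. Capitals mark matches on either strand to 3 motifs: an E2F site (TTTCGCGC, TTTGGCGC, TTTCCCGC or TTTGCCGC), a cell cycle homology region or CHR (TTTGAA or TTCGAA) and a CCAAT box. The Cdk2 stretch lies at chr10:128705052-128705301 on the minus strand, that of E2f8 at chr7:48881597-48881846 on the minus strand, that of Mcm5 at chr8:75109259-75109508 on the plus strand and that of Cdc20 at chr4:118437344-118437593 on the minus strand. Each is printed 5′ to 3′ along the gene and ends at the base before the start.
Cdk2 promoter: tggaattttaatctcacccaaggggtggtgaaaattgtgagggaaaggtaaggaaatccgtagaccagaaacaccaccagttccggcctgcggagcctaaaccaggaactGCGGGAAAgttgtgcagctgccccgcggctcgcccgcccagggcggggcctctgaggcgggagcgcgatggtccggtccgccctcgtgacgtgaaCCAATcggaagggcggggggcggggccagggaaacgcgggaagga
E2f8 promoter: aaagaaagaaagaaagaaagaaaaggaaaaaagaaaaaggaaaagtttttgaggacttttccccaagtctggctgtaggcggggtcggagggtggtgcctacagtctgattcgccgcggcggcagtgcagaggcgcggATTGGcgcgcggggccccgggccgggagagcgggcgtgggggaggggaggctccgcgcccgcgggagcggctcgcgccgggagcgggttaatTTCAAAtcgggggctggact
Mcm5 promoter: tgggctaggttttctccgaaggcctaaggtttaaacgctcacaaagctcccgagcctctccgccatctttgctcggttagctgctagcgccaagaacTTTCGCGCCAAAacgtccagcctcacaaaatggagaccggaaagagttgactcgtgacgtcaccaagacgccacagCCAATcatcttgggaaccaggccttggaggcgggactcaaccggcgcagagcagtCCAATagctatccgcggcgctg
Cdc20 promoter: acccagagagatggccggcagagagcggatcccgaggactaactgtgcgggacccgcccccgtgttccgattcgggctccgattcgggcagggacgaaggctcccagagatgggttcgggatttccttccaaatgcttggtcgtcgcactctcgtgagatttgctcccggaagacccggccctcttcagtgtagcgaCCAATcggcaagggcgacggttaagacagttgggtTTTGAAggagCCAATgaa
Cdk2, a kinase of the G1 to S switch, held an E2F match starting 140 bases before the start and a CCAAT box at 45 bases. E2f8, a repressor of the E2F family, held a CCAAT box and a CHR match. Mcm5, a subunit of the replicative helicase, held overlapping E2F matches and CCAAT boxes, whereas Cdc20, an activator of the anaphase-promoting complex, held CHR and CCAAT matches without an E2F match.

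An E2F match occurred in 10 of the 39 member windows (25.6%) and in 704 of the windows of 27025 genes. The CHR, a short motif, was found in 51.3% of member windows and 21.7% of all windows, and the CCAAT box in 74.4% and 41.1%. Among the 9 origin licensing and replication genes with a window, 7 held an E2F match (Orc1, Cdc6, Cdt1, Mcm3, Mcm5, Mcm6 and Mcm7), while of the 7 mitotic kinase and spindle checkpoint genes 0 did and 5 held a CHR. Of the 39 member windows 8 held none of the motifs (Ccne1, Cdk4, Cdk6, E2f1, Mybl2, Birc5, Mad2l1 and Pttg1). These are matches of letters in a short window and not bound sites.

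Of the members, 47 were above the background on all 23 arrays kept, Ccnd1 and Ccne2 were not above it in leukemia, and Ccnd2 lacked 1 spot. Array B16-D replicate 2 stood out with 90.3% of its spots passing the background test, where the remaining arrays had 46.0% to 55.8%, so it was left out of the comparisons, and its values are named where they matter. All 8 melanocyte markers, among them Mlana, Tyr and Pmel, were above the background on every melanoma array. Tyr, Mitf and Sox10 were above it on all 7 leukemia arrays too, with lower means (-3.57, 0.66 and -4.03 in M0-p20, 3.39, 5.96 and 5.16 in B16-M). Pmel passed on 2 of 4 M0-p20 and 1 of 3 J365-p20 arrays, and Mlana, Tyrp1, Dct and Gpnmb on 0 by the probe used. The pan-leukocyte gene Ptprc was above the background on all 7 leukemia arrays and on 0 of the melanoma arrays kept. Of the other myeloid markers Spi1, Csf2rb, Il3ra, Mpo and Itgam were above it on all leukemia arrays, and Kit, Cd34 and Cd33 on 0. Il3ra and Itgam also passed on all melanoma arrays kept. Csf2rb passed on 2 of 3 arrays in B16-D and B16-D-739 and on all of the other melanoma lines. These genes therefore set the models apart by level only (means 3.96, 3.75 and 0.36 in M0-p20, 0.91, 2.30 and -3.23 in B16-M). Spi1 passed on 1 of 3 B16-M arrays and Mpo on 2 of 4 of B16-D-733. Signals are given as log2 of the deposited signal relative to the 75th percentile of the array, so that a level compares arrays for 1 gene and not genes with each other. A difference counted as called when its adjusted p in limma, over all genes of the fit, was under 0.05.

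**Figure D1:**
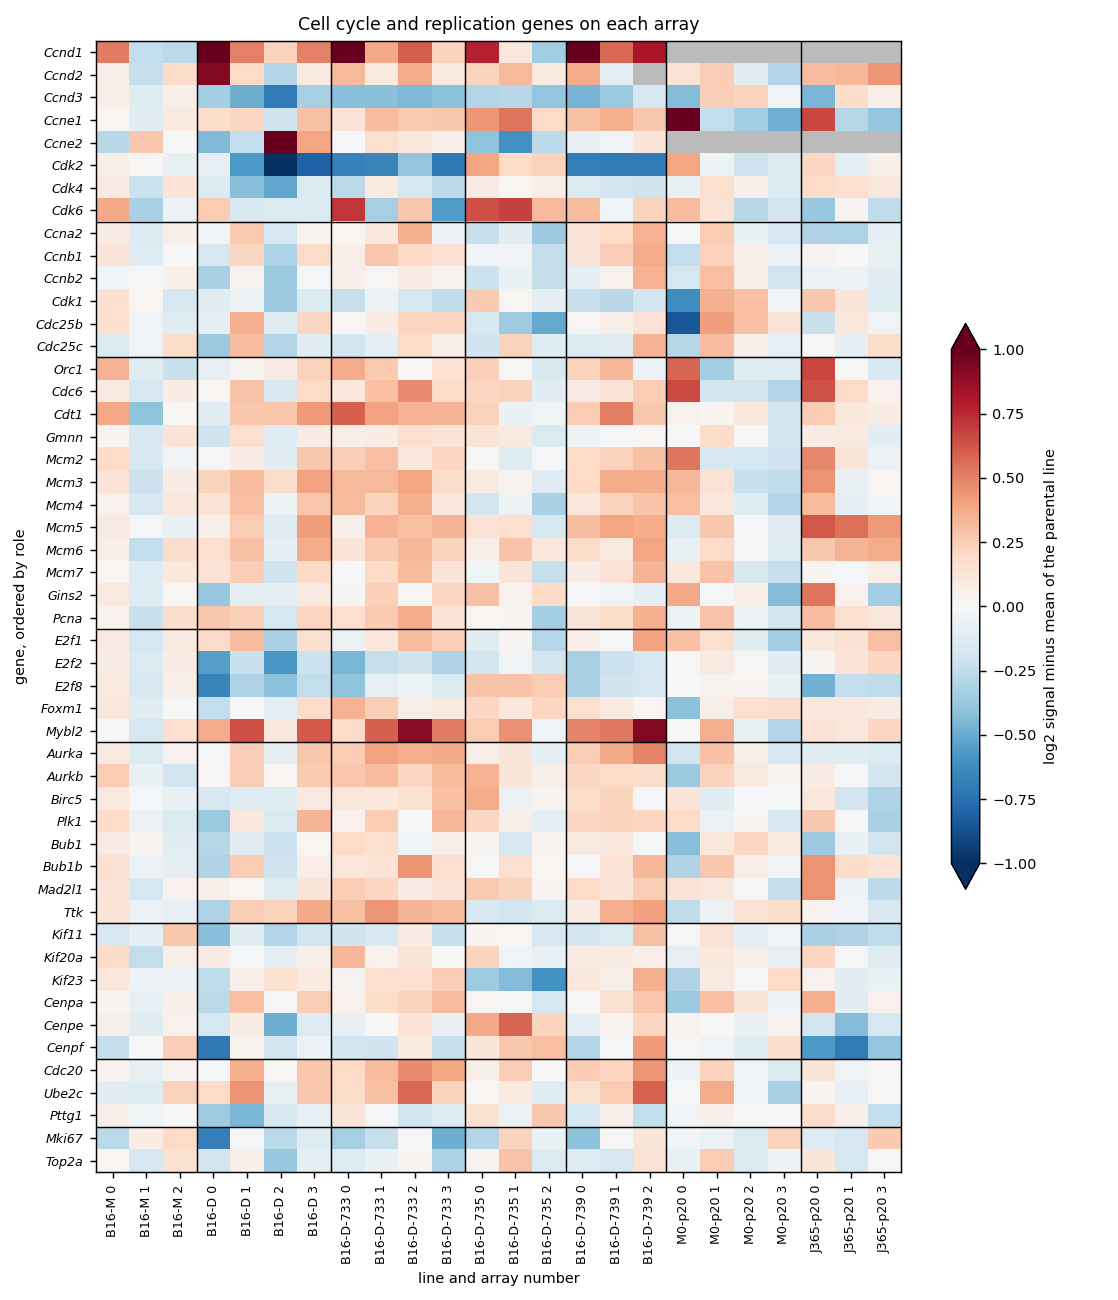
Difference of the log2 signal of each member (vertical, ordered by role) on each array (horizontal, grouped by line) from the mean of the parental line, B16-M for melanoma and M0-p20 for leukemia. Most cells of the map are pale, Cdk2 and Ccnd3 are blue on most B16-D, B16-D-733 and B16-D-739 arrays, the array numbered 2 of B16-D is drawn but was not in the comparisons, and grey marks genes not above the background in leukemia and 1 spot left out.

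The melanoma lines that had been dormant did not show a broad fall of cell cycle RNA. In B16-D, 29 of 50 members were above B16-M and 21 below, with a median log2 difference of 0.05 against -0.04 over all 24312 genes tested. Members above B16-M numbered 38 in B16-D-733, 30 in B16-D-735 and 37 in B16-D-739, with medians of 0.16, 0.04 and 0.15 where those of all genes were 0.03, -0.01 and 0.00. Under quantile normalization the median of the members was -0.01 in B16-D and -0.04 in B16-D-735. Single arrays moved the medians as well. In B16-D it was -0.01 without B16-M replicate 1, 0.13 without B16-M replicate 0 and 0.14 without B16-D replicate 0, and in B16-D-735 it was -0.03 without B16-M replicate 1 and -0.02 without B16-D-735 replicate 0. In B16-D-733 and B16-D-739 it stayed between 0.10 and 0.21 when any array was left out. Of the B16-D arrays replicate 0 had 17 of 50 members above the B16-M mean, where replicates 1 and 3 had 34 and 35. All arrays of B16-D and B16-D-733 except replicate 0 carry a date in their titles, and no other array does. What the date marks is not given, and it cannot be fully told apart from line where these lines are compared with B16-M. The comparisons of the dormant lines with B16-M share the 3 B16-M arrays and are therefore not independent of each other.

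Called members were few, and in the fit without a replicate block all of them were lower. With the replicate number as a block the calls of B16-D-733 and B16-D-739 included higher members, as given with Ccnd1. In B16-D against B16-M limma called 0 members, where 2.00% of all genes were called higher and 1.60% lower, and 4 members were higher and 5 lower at an unadjusted p under 0.05. In B16-D-733, 2 members were called lower, Cdk2 and Ccnd3, and 0 higher, against 2.39% of all genes lower and 3.18% higher, with 11 members higher and 3 lower at an unadjusted p under 0.05. In B16-D-735 limma called 0 members, against 1.97% of all genes lower and 3.07% higher, with 2 members higher and 3 lower at an unadjusted p under 0.05. In B16-D-739, 1 member, Cdk2, was called lower and 0 higher, against 1.55% of all genes lower and 2.15% higher, with 7 members higher and 2 lower at an unadjusted p under 0.05. With 50 members, adjusted counts of this size are near the shares of all genes.

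The spread between these arrays bounded how far most members could have fallen in the RNA measured. That spread may be technical, so the intervals do not bound differences between cultures. The 95% interval of the difference lay above a log2 value of -1, which is a 2-fold fall, for 50 of 50 members in B16-D, B16-D-733 and B16-D-735 and for 49 in B16-D-739, the exception being Cdk2. The median distance from a difference to the end of its interval was 0.28, 0.26, 0.28 and 0.28 on the log2 scale. Intervals lay within 0.5 log2 units of 0 for 29, 29, 34 and 28 members, so that smaller shifts of the remainder were not resolved with 3 or 4 arrays.

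**Figure D2:**
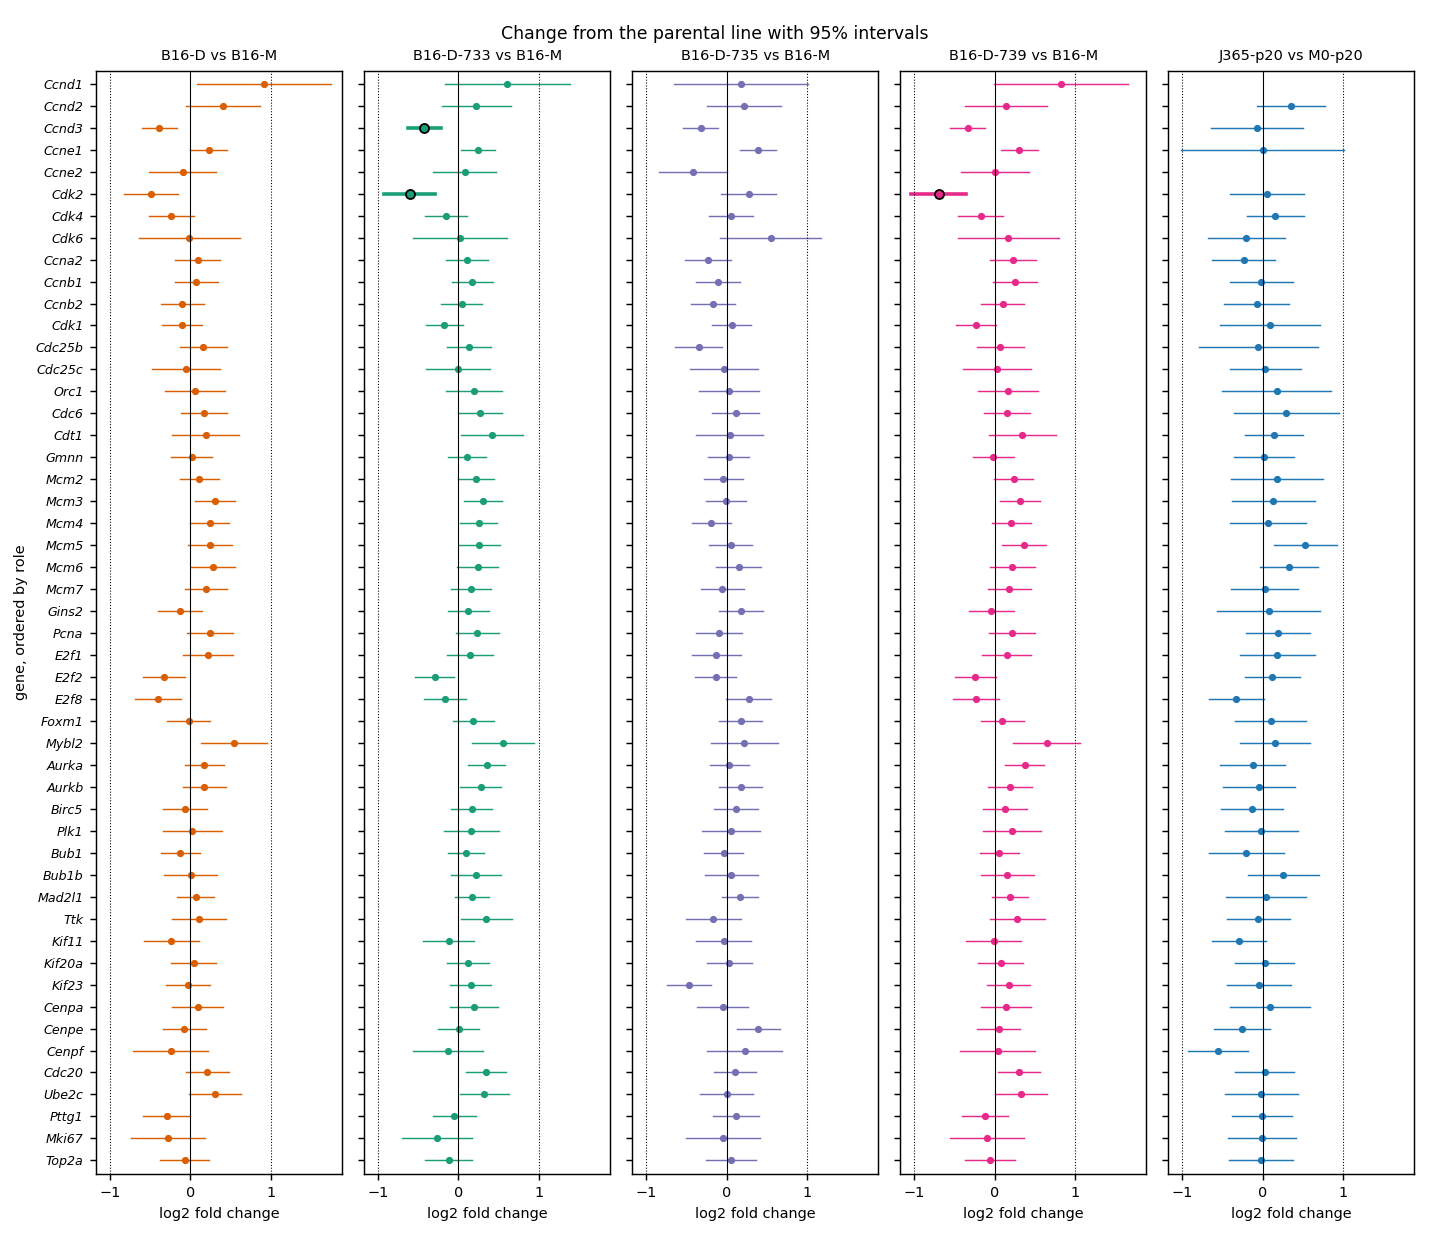
Log2 difference of each member (horizontal axis) from the parental line, with 95% intervals of the limma fit, in 5 panels for the 4 melanoma lines against B16-M and J365-p20 against M0-p20; dotted lines stand at -1 and 1, a 2-fold fall and rise, and called members are outlined. Most intervals cover 0, and the outlined members are Cdk2 and Ccnd3 in B16-D-733 and Cdk2 in B16-D-739, all to the left of 0.

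The general marks of proliferation were close to the parental level. Mki67, a protein that coats mitotic chromosomes, stood at 4.77, 5.11 and 5.24 on the B16-M arrays, at 4.36, 5.02 and 4.92 in B16-D and between 4.56 and 5.26 in the other dormant melanoma lines. The ranges overlapped in all 4 lines, and the differences ran from -0.28 ± 0.21 (SE) in B16-D to -0.05 ± 0.21 in B16-D-735. Top2a, the topoisomerase that untangles replicated chromosomes, lay between 4.12 and 4.44 in B16-M and between 3.98 and 4.58 in the dormant lines, with differences from -0.12 to 0.06.

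Among the G1 cyclins and their kinases, Cdk2 and Ccnd3 were the members that fell. Cdk2 was measured at 2.67, 2.62 and 2.54 in B16-M, at 1.94, 1.95, 2.22 and 1.90 in B16-D-733 and at 1.92, 1.91 and 1.91 in B16-D-739. No array of these dormant lines reached the B16-M range, and the log2 differences were -0.61 ± 0.15 (SE, adjusted p = 0.028, limma) in B16-D-733 and -0.70 ± 0.16 (adjusted p = 0.025, limma) in B16-D-739. In B16-D it stood at 2.53, 2.03 and 1.80, also below every B16-M array, with a difference of -0.49 ± 0.16 that was not called (adjusted p = 0.12, limma), and the array left out read 1.60. In B16-D-735 it stood at 3.01, 2.81 and 2.84, above B16-M, with a difference of 0.28 ± 0.16 (adjusted p = 0.45, limma).

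The calls of Cdk2 rested on few arrays and on a single probe, so the mean of all probes was no separate check. In B16-D-739 the call was lost when any single array of B16-M or B16-D-739 was left out, without a filter on dim probes and with B16-D replicate 2 included (adjusted p up to 0.087 over the alternatives, limma, with differences from -0.73 to -0.67). In B16-D-733 it was kept under 9 of 17 alternatives, with differences from -0.68 to -0.54, and was lost when any array of B16-M or replicate 0, 1 or 3 of B16-D-733 was left out, which includes each of the arrays that share a title number; the Ccnd3 call described next was kept without either. Within single slides, which each held arrays of B16-M and of both lines, the Cdk2 difference from B16-M was -0.32, -0.68 and -0.75 in B16-D-733 and -0.62, -0.72 and -0.75 in B16-D-739.

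Ccnd3, a D-type cyclin that partners Cdk4 and Cdk6, was measured lower in each dormant melanoma line, and the fall was called in B16-D-733. It read 6.54, 6.36 and 6.54 in B16-M, 6.14, 5.99 and 6.15 in B16-D, 6.07, 6.06, 6.03 and 6.07 in B16-D-733, 6.19, 6.21 and 6.09 in B16-D-735 and 6.02, 6.11 and 6.31 in B16-D-739. Every kept array of the dormant lines was below all 3 of B16-M, and the difference was negative within every slide that held kept arrays of both lines. It was -0.42 ± 0.09 in B16-D-733 (adjusted p = 0.018, limma), -0.39 ± 0.10 in B16-D, -0.32 ± 0.10 in B16-D-735 and -0.33 ± 0.10 in B16-D-739 (adjusted p = 0.055, 0.099 and 0.10, limma). The call in B16-D-733 was lost without B16-M replicate 0 or replicate 2, without a filter, with only the lines compared and with B16-D replicate 2 included (adjusted p up to 0.082 over the alternatives, limma), with differences from -0.66 to -0.39. A second Ccnd3 probe gave -0.45 in B16-D-733.

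Ccnd1, the D-type cyclin that carries mitogen signals into the cycle, had a higher mean than B16-M in all 4 lines but was called in none of them. It read 4.10, 3.33 and 3.31 in B16-M, 5.32, 4.08 and 4.09 in B16-D, 4.81, 3.96, 4.19 and 3.81 in B16-D-733, 4.35, 3.69 and 3.23 in B16-D-735 and 4.68, 4.16 and 4.40 in B16-D-739. The differences were 0.91 ± 0.39, 0.61 ± 0.36, 0.18 ± 0.39 and 0.83 ± 0.39 (adjusted p = 0.25, 0.45, 0.96 and 0.36, limma), and only B16-D-739 did not overlap B16-M. Within slides the Ccnd1 difference in B16-D-733 was 0.88, 1.48 and -0.22, so its direction was not the same on every slide.

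Arrays of B16-D-733 and B16-D-739 varied together with the B16-M array of the same replicate number, and with the number as a block in a fit of these 3 lines Ccnd1 was called higher, by 0.74 (adjusted p = 0.010, limma) and 0.83 (adjusted p = 0.0074, limma). That fit called 6 members in B16-D-733 (higher Ccnd1, Mybl2, Ube2c and Cdc20, lower Ccnd3 and Cdk2) and 4 in B16-D-739 (higher Ccnd1, Mybl2 and Ube2c, lower Cdk2). It called 3284 and 2664 of 23014 genes. With the block in the fit of all melanoma lines, 3 and 2 members were called. The share of all genes called in that fit is not given here, so these counts cannot be set against it.

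The remaining G1 members were not called in any dormant melanoma line. Ccnd2, another D-type cyclin, differed from B16-M by 0.14 to 0.41, and the kinase Cdk4 by -0.24 to 0.06. Cdk6, which like Cdk4 is activated by D-type cyclins, differed by -0.01, 0.02, 0.55 and 0.17 in B16-D, B16-D-733, B16-D-735 and B16-D-739. Ccne1, the cyclin that activates Cdk2, was above B16-M by 0.23, 0.24, 0.39 and 0.31 (lowest adjusted p = 0.053, limma, in B16-D-735).

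**Figure D3:**
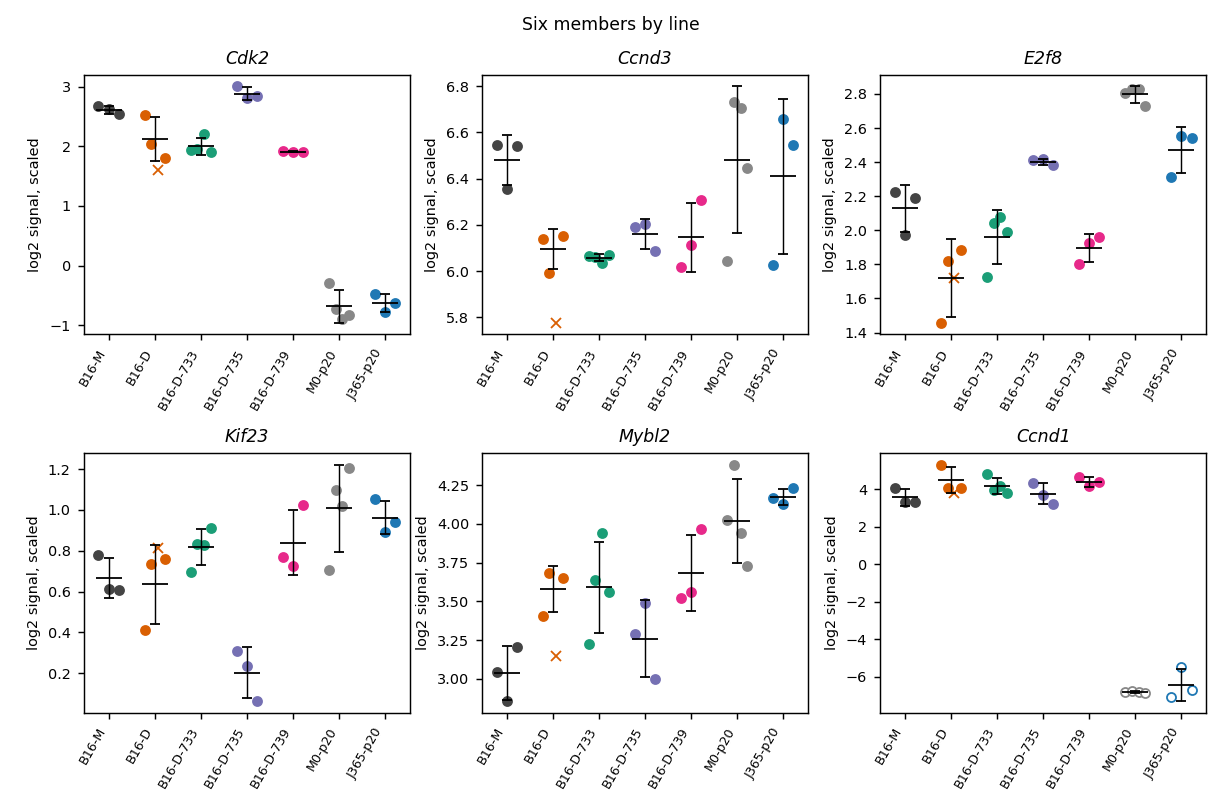
Log2 signal relative to the 75th percentile of the array (vertical axis) of Cdk2, Ccnd3, E2f8, Kif23, Mybl2 and Ccnd1 in the 7 lines (horizontal axis); a point is 1 array, bars are mean ± SD, open points were not above the background and the cross is B16-D replicate 2, which is not in the mean. Among melanoma lines Cdk2 sits lowest in B16-D-739 (1.91 ± 0.01, SD, n = 3) and highest in B16-D-735 (2.89 ± 0.11, n = 3), and Ccnd1 is at background level on the leukemia arrays.

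Origin licensing and replication genes had medians slightly above B16-M, with 0 of them called. These 12 genes are the helicase subunits Mcm2 to Mcm7, the origin loaders Orc1, Cdc6 and Cdt1, the loading inhibitor Gmnn, the helicase activator subunit Gins2 and the sliding clamp Pcna. Of them 11 were above B16-M in B16-D, 12 in B16-D-733, 7 in B16-D-735 and 10 in B16-D-739, with median log2 differences of 0.19, 0.24, 0.03 and 0.22. Under quantile normalization the medians were 0.11, 0.13, -0.05 and 0.12, so the direction in B16-D-735 turned with the scaling.

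Mcm5 read 4.39, 4.28 and 4.23 in B16-M, 4.36, 4.55 and 4.71 in B16-D, 4.35, 4.64, 4.60 and 4.64 in B16-D-733 and 4.62, 4.69 and 4.67 in B16-D-739. All B16-D-739 arrays were above those of B16-M, while B16-D and B16-D-733 overlapped it, and the differences of 0.24, 0.26 and 0.36 were not called. In B16-D-735 Mcm5 overlapped B16-M as well, and the differences of the 12 genes there ran from -0.19 to 0.18. Pcna differed by 0.24, 0.23, -0.10 and 0.22 in B16-D, B16-D-733, B16-D-735 and B16-D-739.

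A further 48 replication genes outside the members, among them DNA polymerase subunits, replication factors and nucleotide synthesis enzymes, were set beside them. Of these, 39, 41, 29 and 40 were above B16-M in B16-D, B16-D-733, B16-D-735 and B16-D-739, with medians of 0.17, 0.18, 0.01 and 0.15 (under quantile normalization 0.10, 0.11, -0.01 and 0.11). They held 1 call in these 4 comparisons, Gins4, a subunit of the helicase activator GINS, which was higher in B16-D-733 by 0.48 ± 0.10 (adjusted p = 0.010, limma) and lost the call without B16-M replicate 1.

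The transcription factors lay on both sides of B16-M without a call. Their lowest differences were -0.41, -0.30, -0.13 and -0.24 in B16-D, B16-D-733, B16-D-735 and B16-D-739. E2f1, an activator of S phase genes, differed by 0.22, 0.15, -0.13 and 0.15 in B16-D, B16-D-733, B16-D-735 and B16-D-739. Mybl2 read 3.05, 2.86 and 3.21 in B16-M and 3.41, 3.68 and 3.65 in B16-D, and it differed by 0.54 ± 0.19 in B16-D, 0.55 ± 0.18 in B16-D-733 and 0.65 ± 0.19 in B16-D-739 (lowest adjusted p = 0.097, limma). In B16-D-735 no factor, Mybl2 included, was above B16-M by more than 0.27. E2f8 differed by -0.41 ± 0.13 in B16-D (adjusted p = 0.12, limma) and by 0.27 ± 0.13 in B16-D-735. Foxm1 stayed between -0.02 and 0.19. Every kept array of E2f2 was below all of B16-M in B16-D, B16-D-733 and B16-D-739, and of E2f8 in B16-D and B16-D-739. Mybl2 was wholly above B16-M in B16-D, B16-D-733 and B16-D-739, E2f1 in B16-D and E2f8 in B16-D-735. Over all genes tested 10.9%, 11.3%, 11.5% and 11.1% lay wholly above B16-M in the 4 lines, and 6.3%, 7.4%, 8.7% and 8.4% wholly below.

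Among the genes of G2 and mitosis 0 members were called in the 4 lines. The 8 mitotic kinase and spindle checkpoint genes, which include Aurka, Aurkb, Plk1, Bub1 and Ttk, had 6, 8, 6 and 8 of them above B16-M in B16-D, B16-D-733, B16-D-735 and B16-D-739, with medians of 0.04, 0.19, 0.06 and 0.19. The kinesins and centromere proteins had 2, 4, 3 and 5 of 6 above, with medians of -0.05, 0.06, 0.00 and 0.06 that moved to -0.11, -0.01, -0.03 and 0.01 under quantile normalization. Cdk1, the kinase that starts mitosis, differed by -0.11, -0.18, 0.06 and -0.24 in these lines. Its cyclin Ccnb1 differed by 0.08, 0.17, -0.10 and 0.25, and Ccna2, the cyclin of S and G2, by 0.09, 0.11, -0.23 and 0.22.

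Kif23, a motor of the spindle midzone needed to finish cell division, was lowest in B16-D-735, with 0.31, 0.24 and 0.06 against 0.78, 0.61 and 0.61 in B16-M (-0.46 ± 0.13, adjusted p = 0.053, limma). Of 60 other mitosis genes 34, 45, 33 and 45 were above B16-M in B16-D, B16-D-733, B16-D-735 and B16-D-739, with medians of 0.03, 0.08, 0.01 and 0.08. In B16-D-735, Cenpm, a kinetochore protein, and Pkmyt1, an inhibitory kinase of Cdk1, were called lower by limma (-0.62 ± 0.14 and -0.49 ± 0.12), and the calls were kept under 9 and 7 of 15 alternatives.

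B16-D-735 differed from the other second-generation lines in 9 members. Against the mean of B16-D-733 and B16-D-739, 3 members were called higher (Cdk2, E2f8 and Cenpe) and 6 lower (Kif23, Ttk, Cdc25b, Mcm4, Ccna2 and Aurka), where 5.31% of all genes were called higher and 5.55% lower. With 50 members the count higher is near the share of all genes. The count lower is above it, and that excess was not tested. The median over members was -0.11 and that over all genes -0.02.

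Cdk2 had the largest of these member differences, 0.93 ± 0.13 (adjusted p = 0.00061, limma), and was called under all 19 alternatives run, with differences from 0.87 to 0.98. As Cdk2 has a single probe, the alternative with the mean of all probes adds no other probe for it. The 3 arrays of B16-D-735 read 2.81 to 3.01 and the 7 arrays of the other lines 1.90 to 2.22. Kif23 was below all 7 arrays of B16-D-733 and B16-D-739, which lay between 0.70 and 1.02. Its difference of -0.63 ± 0.11 (adjusted p = 0.0021, limma) was also called under all 19 alternatives, and a second Kif23 probe gave -0.63.

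E2f8 stood at 2.41, 2.42 and 2.38 in B16-D-735 and between 1.73 and 2.08 in B16-D-733 and B16-D-739, a difference of 0.47 ± 0.11 (adjusted p = 0.015, limma) whose call was lost when any 1 of the B16-D-735 arrays was left out (adjusted p up to 0.062, limma). Mcm4, a helicase subunit, read 4.18, 4.31 and 4.04 against 4.47 to 4.71 (-0.42 ± 0.10, adjusted p = 0.013, limma), called under 17 of 19 alternatives. The groups did not overlap for either gene.

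Cdc25b, the phosphatase that switches on Cdk1, differed by -0.44 ± 0.11 (adjusted p = 0.025, limma) and was called under 14 of 19. The other calls were Ttk, a spindle checkpoint kinase (-0.48 ± 0.13), Ccna2 (-0.40 ± 0.11), Cenpe, a kinetochore motor (0.37 ± 0.11), and Aurka, a spindle pole kinase (-0.33 ± 0.10), with adjusted p from 0.036 to 0.045 in limma. They were called under 9, 9, 8 and 5 of the 19. Leaving out B16-D-735 replicate 1 or replicate 2 reduced the count of called members from 9 to 3, leaving out its replicate 0 to 4, and leaving out B16-D-733 replicate 1 or B16-D-739 replicate 1 or 2 to 5.

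**Figure D4:**
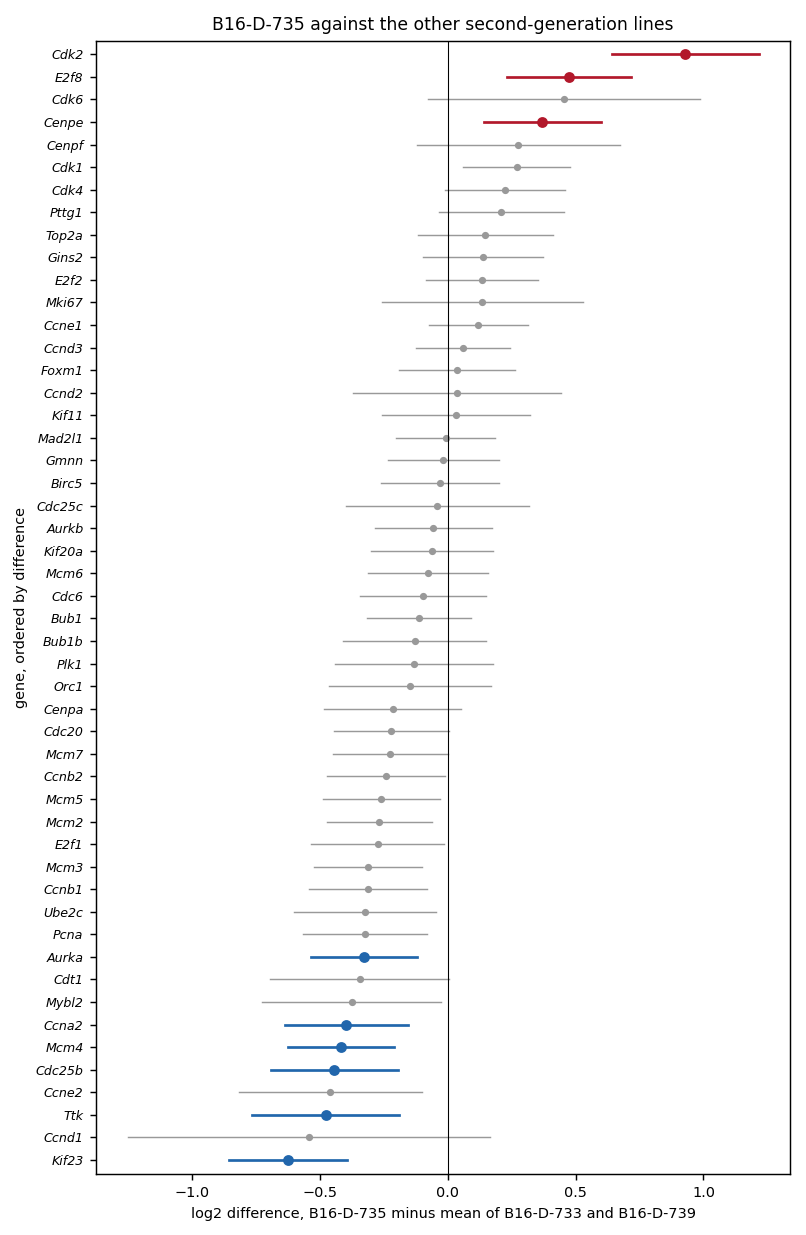
Log2 difference of each member between B16-D-735 and the mean of B16-D-733 and B16-D-739 (horizontal axis), with 95% intervals of the limma fit; called members are drawn larger, in red where higher and blue where lower. Cdk2 stands alone at the right (0.93), and the lowest of the called members is Kif23 (-0.63).

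Other genes of replication and mitosis were called in the same comparison. Of 48 other replication genes 1 was called higher and 6 lower, beside 5.31% and 5.55% of all genes, with Tipin, which guards replication forks (-0.59 ± 0.10), Uhrf1, which helps copy DNA methylation at the fork (-0.58 ± 0.10), and Pole2, a subunit of the leading strand polymerase (-0.56 ± 0.11), called lower under all 19 alternatives. Of 60 other mitosis genes 1 was called higher and 7 lower, led by Cks1b, a small adaptor of cyclin kinases (-0.58 ± 0.10), Pkmyt1 (-0.57 ± 0.10) and Trip13, a checkpoint remodeller (-0.55 ± 0.13).

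Some markers of fibroblasts differed in this line too, in both directions. On each B16-D-735 array 4 of 7 of them were above the background (Col1a1, Col1a2, Pdgfrb and Dcn), with a summed level of 1.20 to 1.59 relative to the 75th percentile against 0.62 to 0.76 in B16-M and 0.38 to 0.93 in B16-D-733 and B16-D-739. Dcn was above the background on its 3 arrays and on 0 arrays kept of the other lines, while Col3a1, Lum and Pdgfra were above it on 0 of the 3. A count of 4 markers above the background was also reached on single arrays of B16-D, B16-D-733 and B16-D-739. The means of Dcn, Col1a1 and Col1a2 were above those of B16-D-733 and B16-D-739. Those of Pdgfrb (-3.41 against -2.72 and -3.08) and Pdgfra were below them. The part of these markers in the member values was not tested.

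B16-D-735 also differed from B16-D in 5 members, 3 called higher (Cdk2, E2f8 and Cenpe) and 2 lower (Cdc25b and Mcm4), against 4.07% of all genes higher and 3.93% lower. With 50 members these counts are near the shares of all genes. Cdk2 was higher by 0.77 ± 0.16 (adjusted p = 0.0095, limma) and E2f8 by 0.68 ± 0.13 (adjusted p = 0.0068, limma). Both were called under 14 of 15 alternatives, and the fit of these lines alone called 0 members. Leaving out B16-D replicate 1 or 3 or any array of B16-D-735 reduced the count from 5 to 3. For B16-D-733 and B16-D-739 against B16-D limma called 0 members, where 0.411% and 0.230% of all genes were called higher and 0.0699% and 0.0782% lower, and 0 members reached an unadjusted p under 0.05 in either.

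Among genes that hold the cycle back, calls were made in every dormant melanoma line. Of 27 such genes 25 were tested, and 0 were called higher and 3 lower in B16-D (2.00% and 1.60% of all genes), 0 and 2 in B16-D-733 (3.18% and 2.39%), 2 and 0 in B16-D-735 (3.07% and 1.97%), and 0 and 3 in B16-D-739 (2.15% and 1.55%). Cdkn1c, which encodes the inhibitor p57, was called lower in B16-D (-1.73 ± 0.43, adjusted p = 0.045), B16-D-733 (-2.36 ± 0.40, adjusted p = 0.0033) and B16-D-739 (-1.84 ± 0.43, adjusted p = 0.032) and higher in B16-D-735 (3.18 ± 0.43, adjusted p = 0.00055, all limma). It read -3.07, -2.92 and -2.80 in B16-M and -0.04, 0.52 and 0.27 in B16-D-735, without overlap.

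In the 3 lower lines Cdkn1c was dim, above the background on 1 of 3 arrays of B16-D kept, 1 of 4 of B16-D-733 and 2 of 3 of B16-D-739, so that the size of these falls was not measured well. The call was kept under 2 of 14 alternatives in B16-D, with differences from -2.30 to -0.65, and under 6 of 15 in B16-D-739. In both lines it was lost when any array of B16-M was left out. It held under all 16 alternatives in B16-D-733 and all 14 in B16-D-735. The B16-D-735 arrays were all above those of B16-D-733 (-6.21 to -4.83) and B16-D-739 (-4.98 to -4.61).

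Cdkn2c, which encodes the Cdk4 and Cdk6 inhibitor p18, was called lower in B16-D (-0.69 ± 0.16, adjusted p = 0.035), B16-D-733 (-0.59 ± 0.15, adjusted p = 0.040) and B16-D-739 (-0.68 ± 0.16, adjusted p = 0.034, all limma). It read 2.36, 2.50 and 2.69 in B16-M, where B16-D read 1.55, 1.98 and 1.94 and B16-D-735 2.28, 2.44 and 2.54. The call was lost under 7 of 15, 7 of 17 and 7 of 16 alternatives, among them B16-M replicate 1 or replicate 2 left out.

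The related inhibitor gene Cdkn2d was called lower in B16-D (-0.44 ± 0.10, adjusted p = 0.030, limma) and Cdkn1b, the gene of p27, in B16-D-739 (-0.48 ± 0.12, adjusted p = 0.049, limma). Tob1, an antiproliferative gene, was called higher in B16-D-735 (0.45 ± 0.12, adjusted p = 0.049, limma). These calls were kept under 7 of 15, 5 of 16 and 5 of 15 alternatives. Cdkn2a, which encodes p16 and Arf, was not above the background on any melanoma array kept.

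**Figure D5:**
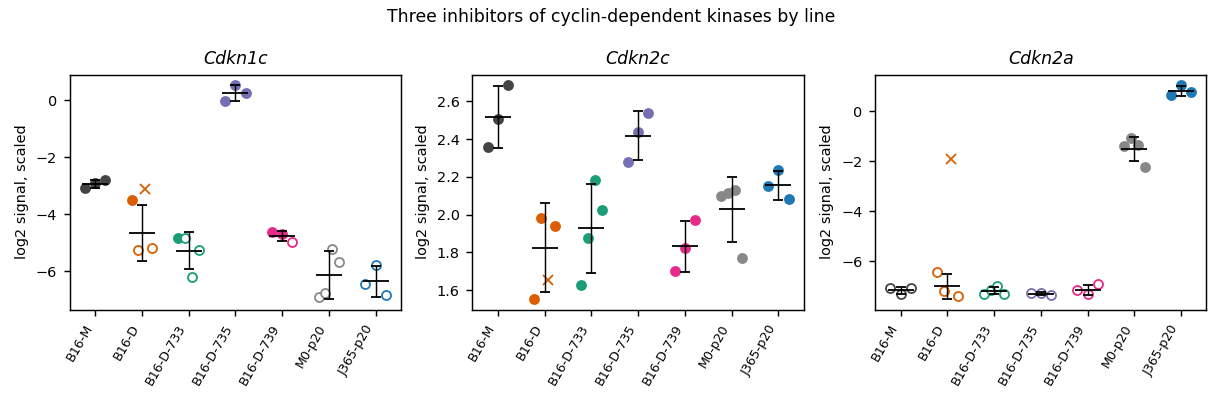
Log2 signal relative to the 75th percentile of the array (vertical axis) of the inhibitor genes Cdkn1c, Cdkn2c and Cdkn2a in the 7 lines (horizontal axis); a point is 1 array, bars are mean ± SD, open points were not above the background and the cross is B16-D replicate 2. Cdkn1c is highest in B16-D-735, Cdkn2c is lower than B16-M in B16-D, B16-D-733 and B16-D-739, and Cdkn2a is above the background in the leukemia lines, higher in J365-p20 than in M0-p20.

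Markers of other cell types differed between the dormant lines and B16-M without one direction. Pdgfrb, a receptor of fibroblasts and pericytes, was above the background on 0 of 3 B16-M arrays and on all kept arrays of the 4 dormant lines. Of the 7 fibroblast markers 5 were tested, with median differences of -0.17, 0.31, 0.95 and -0.60 in B16-D, B16-D-733, B16-D-735 and B16-D-739, and Col1a2 was called lower in B16-D-739 (-1.32). Of 9 myeloid markers 4 were tested and 1 was called higher in each line, Il3ra in B16-D, B16-D-735 and B16-D-739 (1.27, 1.47 and 1.12) and Kit in B16-D-733 (0.93), while Ptprc was not above the background. Kit was above the background on all melanoma arrays kept, B16-M included, and on 0 leukemia arrays, so here it did not mark the leukemia lines. The T cell gene Lck was called higher in B16-D-733 (1.16) and B16-D-739 (0.79) and lower in B16-D-735. Of the same list Cd3g and Cd8a were above the background on 0 melanoma arrays kept. Cd3e and Cd4 were above it on all of them, B16-M included, and were not called in any of the 4 dormant lines. The summed level of the 8 melanocyte markers was 1530 to 1833 times the 75th percentile on the dormant arrays kept and 1614 to 1739 times on those of B16-M. The part of these cell types in the member values was not tested.

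In leukemia, J365-p20 did not differ from M0-p20 in any member by limma. Of 48 members tested, 0 were called higher and 0 lower, against 0.488% and 0.579% of all genes, and 1 member was higher and 1 lower at an unadjusted p under 0.05. Above M0-p20 were 26 of 48, with a median log2 difference of 0.03 against -0.02 for all 22971 genes, and the median of the members was -0.04 under quantile normalization and between -0.04 and 0.08 with single arrays left out, below 0 without M0-p20 replicate 0 or 3 or J365-p20 replicate 0. The intervals were wider than in melanoma, with a median distance from difference to interval end of 0.42, and 47 of 48 lay above -1.

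The smallest unadjusted p belonged to Cenpf, a kinetochore protein, and Mcm5. Cenpf read 2.55, 2.53, 2.43 and 2.74 in M0-p20 and 1.99, 1.85 and 2.18 in J365-p20, without overlap (-0.56 ± 0.16, adjusted p = 0.37, limma). Mcm5 read 3.99, 4.40, 4.11 and 4.02 in M0-p20 and 4.75, 4.68 and 4.55 in J365-p20, also without overlap (0.53 ± 0.17, adjusted p = 0.44, limma). Mki67 differed by -0.01 ± 0.18, Top2a by -0.02 ± 0.17 and Cdk2 by 0.06 ± 0.20, which places these marks near the parental level. Ccnd3 differed by -0.07 ± 0.24, E2f1 by 0.18 ± 0.20 and Pcna by 0.19 ± 0.17.

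The 12 origin licensing genes had means above M0-p20, with a median difference of 0.16, and 40 of 48 other replication genes were above it, with a median of 0.15. Array M0-p20 replicate 0 stood apart from the other arrays of its line in Ccne1, Cdc6 and Mcm2. With the arrays numbered 0 of both lines left out, 10 of the 12 were above 0 and the median was 0.11, and under quantile normalization the median was 0.10. The kinesins and centromere proteins had 2 of 6 members above M0-p20, with a median of -0.15.

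Cdkn2a was the brake called in leukemia, higher in J365-p20 by 2.32 ± 0.28 (adjusted p = 0.0085, limma). It read -1.40, -1.08, -1.33 and -2.22 in M0-p20 and 0.64, 1.04 and 0.76 in J365-p20, without overlap, and the call was kept under 12 of 15 alternatives and lost without J365-p20 replicate 1.

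The difference of the members between the dormant and the parental line was not shown to differ between melanoma and leukemia. The B16-D difference minus the J365-p20 difference was called for 0 members higher and 0 lower in limma, against 1.34% and 0.938% of all genes, with 0 higher and 3 lower at an unadjusted p under 0.05.

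The parental lines B16-M and M0-p20 differed in 31 members. B16-M was called higher in 16 and lower in 15, against 25.2% and 31.0% of all 26759 genes, so that the share of the members was near that of all genes. Ccnd1 was at least 569-fold higher in B16-M, as it was not above the background on any M0-p20 array, where it read -6.88 to -6.76 against 3.31 to 4.10 in B16-M. Cdk6 was the reverse, with a difference of -3.08 ± 0.25, and Ccnd3 differed by 0.00 ± 0.16.

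Other members called higher in B16-M included Cdk2 (3.30 ± 0.16), Ccnd2 (1.69 ± 0.19), E2f1 (1.30 ± 0.15), Mcm2 (1.24 ± 0.17), Foxm1 (1.17 ± 0.14) and Pcna (1.17 ± 0.13). Members called lower included Pttg1, the securin that delays the separation of sister chromatids (-1.58 ± 0.13), Ttk (-1.42 ± 0.15), Mybl2 (-0.98 ± 0.18) and Mki67 (-0.88 ± 0.19). Over the alternatives the count of called members ran from 25 to 33.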

How the data were processed

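Total RNA of 24 samples was labelled with Cy3 by the authors and hybridised to Agilent mouse 8 x 60k arrays, on 3 slides of 8 arrays. The deposited values are the intensity of each spot after background subtraction by Agilent Feature Extraction 10.7.3.1, per the file headers, with no scaling between arrays. The study names GeneSpring for analysis and no test for the arrays. Control spots and 2468 outlier spots were left out (among them the Ccnd2 spot of B16-D-739 replicate 2), 0 spots were saturated, and spots of a probe were averaged. After log2 transformation each array was centred on its own 75th percentile, which lay at an intensity of 419 to 774. The 56605 probes were joined to genes through RefSeq accessions, and 32994 were named. The brightest probe over the 23 arrays kept stood for a gene; 25 members had several probes.

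Two-sided tests came from limma 3.58.1 (R 4.3.3), with 16 melanoma arrays or 7 leukemia arrays in a model and all 23 for the difference between them and for B16-M against M0-p20. Genes entered a model if their probe passed the scanner's background test on 3 or more of its arrays, and Benjamini-Hochberg adjustment covered every gene entered. The models were tested on simulated data. Files were handled in Python 3.11.15 with pandas 2.3.3, and figures drawn with matplotlib 3.10.9. Precision is limited by how few arrays each line has.

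Replicate numbers were checked as pairs by the correlation of deviations from the line means across genes. They were 0.58, 0.35 and 0.82 for B16-D-733 and 0.74, 0.58 and 0.83 for B16-D-739 with B16-M, so arrays of the same number varied together in these lines. Number and slide coincide for B16-D-739 and for replicate 2 of B16-D-733 (0.82). Pairing by number was therefore not fully separated from slide. The alternatives tried were normexp background correction with an offset of 50, quantile normalization, other filters, the mean of all probes, slide or replicate blocks, fits of fewer lines, B16-D replicate 2 included and each array left out. Normexp used the median foreground signal, as no mean signal column was used here.

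The members and lists were chosen with earlier results of these data known. Named by rule are, for each dormant line against its parent, the 4 called members with the largest change or, with 0 called, the 2 with the smallest p, 13 textbook members, and up to 3 called genes of each other list. Other genes were named after their values were seen.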

Additional observations from a re-analysis of the deposited data

Results flagged for a closer look

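Dixon's test was run on 100 groups of 4 arrays, one for each member and line, where chance gives about 5 outliers, and 7 were found. In M0-p20, replicate 0 was high in 3 members: Ccne1 at 4.16 against 2.61 to 2.84 on the other arrays, Cdc6 at 1.22 against 0.27 to 0.38, and Mcm2 at 3.33 against 2.58 to 2.63. In B16-D-733, replicate 2 was high in Cdk2 (2.22 against 1.90 to 1.95), Bub1b (1.23 against 0.90 to 0.95) and Cenpf (2.46 against 2.15 to 2.19), and replicate 0 was low in Mcm5 (4.35 against 4.60 to 4.64).

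The differences of B16-D-735 and of the mean of B16-D-733 and B16-D-739 from B16-M were not the same in 9 members, by the test of the contrast between these lines in limma. The contrast was 0.93 for Cdk2, 0.47 for E2f8 and 0.37 for Cenpe, and it was -0.63 for Kif23, -0.48 for Ttk, -0.44 for Cdc25b, -0.42 for Mcm4, -0.40 for Ccna2 and -0.33 for Aurka.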

How the results depend on the processing

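No called value reversed its direction under the alternatives run. The number of called members was 0 in B16-D against B16-M, and 1 with normexp, 2 with quantile normalization, and 1 each with genes above the background on every array, slide block, replicate block and B16-D replicate 2 included. For B16-D-733 it was 2, and 0 without a filter or with B16-D replicate 2 included, 1 with only the lines compared and 6 with the replicate block in a fit of B16-M, B16-D-733 and B16-D-739. For B16-D-735 it was 0, and 2 with normexp, quantile normalization or genes above the background on every array, 1 with the mean of all probes and 3 with the slide block. For B16-D-739 it was 1, and 2 with quantile normalization, the slide block or the replicate block, 0 without a filter or with B16-D replicate 2 included and 4 with the block in the fit of the 3 lines. B16-D-735 against B16-D gave 5, and 3 with normexp, 2 without a filter and 0 with only these lines. Against the mean of the other lines it gave 9, and 5 with normexp and 4 without a filter. Except for the fit of the 3 lines, the shares of all genes called under these alternatives are not given here. The counts are therefore not read as results about the members.

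With each array left out in turn the counts ranged from 0 to 1 for B16-D, 0 to 2 for B16-D-733, 0 to 1 for B16-D-735, and were 0 for B16-D-739 in every case. They ranged from 3 to 6 for B16-D-735 against B16-D, from 3 to 8 against the mean of the other lines and from 27 to 31 for B16-M against M0-p20. J365-p20, the difference between the models, and B16-D-733 and B16-D-739 against B16-D kept 0 calls under all alternatives. The replicate numbers of B16-D, B16-D-735 and J365-p20 did not pair throughout with those of their parents. The arrays numbered 0 varied with the parental array in B16-D-735 (correlation 0.80) and J365-p20 (0.51). The remaining correlations of these lines ran from -0.34 to 0.28. With both leukemia arrays numbered 0 left out, an alternative chosen after seeing the data, J365-p20 kept 0 calls. The causes were not tested.

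Without a filter the median of all genes moved by -0.11 in B16-D-735 and -0.12 in J365-p20 against their parents, by -0.20 in B16-D-735 against B16-D and -0.10 against the mean of the other lines, and by 0.14 in the difference between the models, where it moved by 0.10 with B16-D replicate 2 included. Signal over background limits Ccnd1 and Ccne2 in leukemia and Cdkn1c in B16-D, B16-D-733 and B16-D-739.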
